A study of Mus musculus with 12 samples.

Results

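Integrins and the adaptor proteins of focal adhesions were followed as a set of 42 genes, out of 57073 gene models counted in whole mouse retina. The members were chosen by name, with earlier results of these data known. They are 24 integrin subunits (16 alpha and 8 beta) and 18 adaptors that join integrin tails to actin. Each name had a single row in the table. The libraries came from C57BL/6 mice at postnatal day 17, and the groups were 6 libraries from mice in normoxic air and 6 from mice labelled with 75% oxygen, the oxygen-induced retinopathy (OIR) model. In this model high oxygen thins the retinal capillaries of pups, and the hypoxic retina later grows abnormal vessels. All libraries were made from poly-A RNA of whole retina, and the labels read here give no length of exposure. No label ties a library to its own animal, so p-values measure only how far these libraries scatter, and that scatter may be technical.

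Integrins are pairs of an alpha and a beta chain that span the cell membrane and hold cells to matrix proteins or to other cells. Talin and kindlin bind the beta tail and switch the pair on, and vinculin, paxillin, filamin, alpha-actinin and zyxin tie the cluster to actin filaments. In retina, astrocytes and growing vessels use them to follow and anchor to the matrix, Müller glia to hold the inner limiting membrane, and microglia and leukocytes carry their own beta-2 pairs.

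Of the 42 members, 36 had enough reads to be tested with edgeR's quasi-likelihood test (Benjamini-Hochberg adjustment over 18275 genes, threshold 0.05). Of these 36, 26 were higher in OIR, none was lower and 10 did not pass. Over all tested genes, 16.2% were called higher and 14.8% lower. At least 2-fold rises were found in 8 members, all of them integrin subunits, against 4.90% of all tested genes. The members' median log2 fold change was 0.51, where that of all tested genes was -0.0079. The 20 tested integrin subunits had a median of 0.90 and 14 rose, and the 16 tested adaptors had a median of 0.37 and 12 rose. No member had a lower level at an unadjusted p under 0.05 by edgeR, DESeq2 or limma. In 22 of the 36 tested members every OIR library lay above every normoxic library, as it did in 9.12% of all tested genes, and in no member did every OIR library lie below (7.31% of all tested genes). In 3 tested members, Itga2, Itgal and Itgb3, some normoxic libraries were below the filter's level of 0.548 CPM (the gene's count scaled to the library total). These 3 entered the test only through their OIR libraries. Itgb3 reached that level in 3 normoxic and 6 OIR libraries, and Itga2 and Itgal each in 5 and 6. The 26 members called higher and the 8 with 2-fold rises include Itgb3 and Itga2, whose inclusion rests on the group where they are high.

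**Figure D1:**
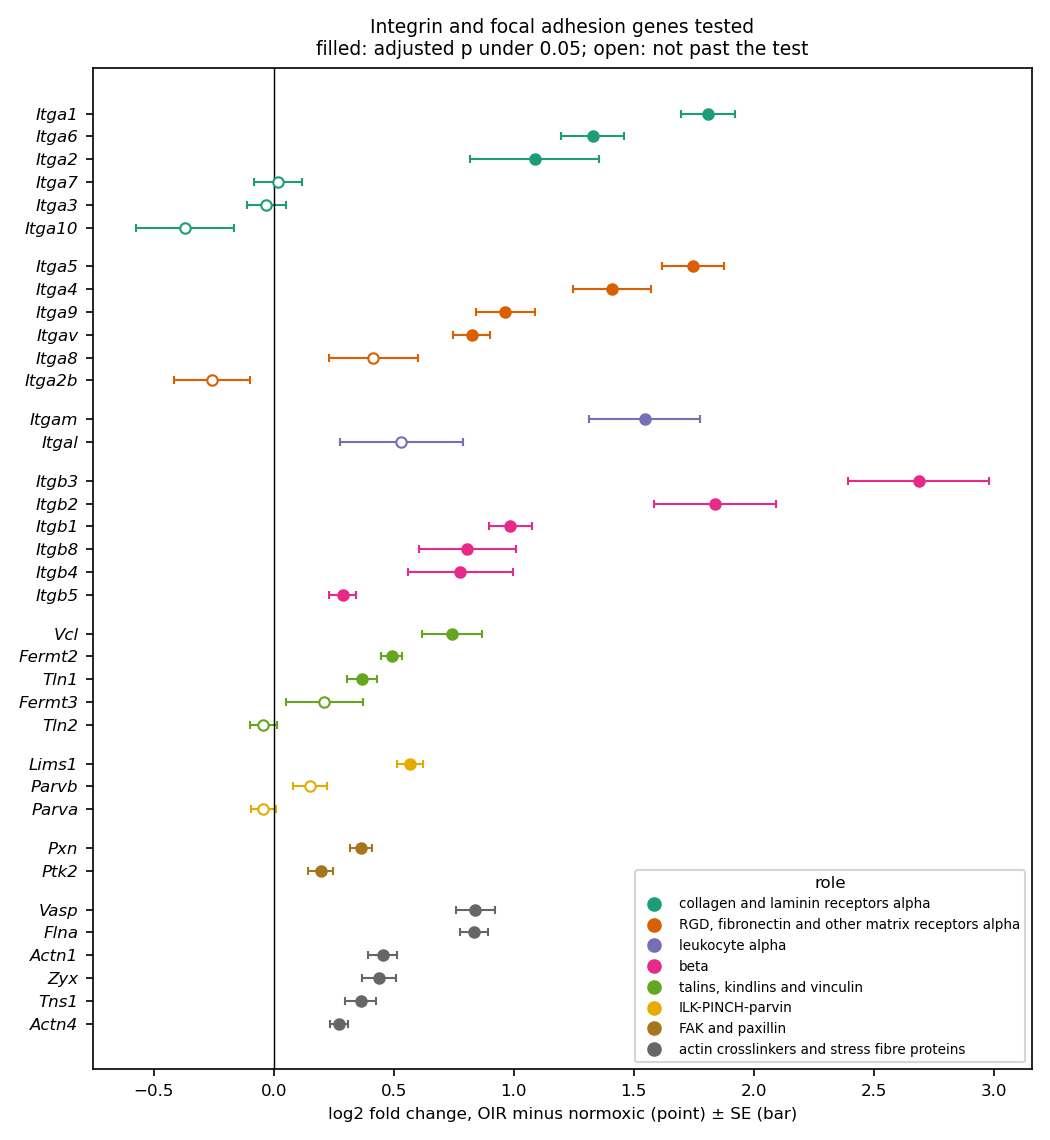
Log2 fold change of the 36 tested members (x axis, OIR minus normoxic, bars are SE), grouped by role on the y axis, with filled points past an adjusted p of 0.05. Itgb3 stands farthest right at 2.69, the actin linkers lie between 0.27 and 0.84, and no filled point lies left of 0.

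Total counts per library were 17361979 to 21594618. Rod genes, which mark photoreceptors, summed to 38000 to 42100 CPM in normoxic and 40900 to 44600 CPM in OIR libraries. In bulk retina, more cells of a type and more RNA per cell cannot be told apart. Markers of several cell types differed between the groups. Endothelial markers were higher in 7 of 8 genes, with a summed level of 244 to 299 CPM in normoxic and 363 to 498 CPM in OIR libraries. Markers of pericytes and smooth muscle were higher in 7 of 7 tested genes of 8 (160 to 215 and 435 to 646 CPM), and those of microglia and macrophages in 7 of 9 (median sums of 51.3 and 125 CPM). Astrocyte markers were higher in 4 of 4. Gfap, the filament gene of reactive glia, carried most of their sum (16.4 ± 3.53 and 224.0 ± 65.0 CPM, 13.7-fold), and Pax2, Aldh1l1 and Pdgfra rose 2.04-, 1.68- and 2.24-fold. Lens markers were lower in 4 of 7 tested genes of 8 (7.20 to 41.6 and 1.97 to 12.9 CPM, with Lim2 at 0 throughout). Markers of Müller glia were mixed, with 2 higher and 3 lower of 6. The part of these cell types in the members' differences was not tested.

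Among the alpha chains that bind collagen or laminin, 3 of 6 tested members rose. Itga1, the collagen-binding chain of vessel walls (chromosome 13, 115089632 to 115238500, build GRCm39), ranged from 5.45 to 7.41 CPM in normoxic libraries (median 7.20) and from 18.6 to 28.2 CPM in OIR libraries (median 24.2). Every OIR library was more than 2-fold above the highest normoxic library. The rise was 3.5-fold (log2 1.81 ± 0.11 SE, edgeR adjusted p = 1.4e-09). Itga6, the laminin receptor chain (chromosome 2, 71575960 to 71688760), ranged from 8.51 to 13.3 CPM in normoxic (median 11.1) and from 21.4 to 35.8 CPM in OIR libraries (median 26.9). The groups were separate, and the rise was 2.51-fold (log2 1.33 ± 0.13 SE, edgeR adjusted p = 4.0e-07). Itga2, another collagen receptor chain, ranged from 0.516 to 1.56 CPM (median 1.01) in normoxic and from 1.32 to 2.92 CPM (median 2.31) in OIR libraries. Its groups overlapped, with 5 of 6 OIR libraries above the highest normoxic library, and the rise of 2.12-fold had an edgeR adjusted p of 0.0046.

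The laminin receptor chains Itga3 and Itga7 did not move with Itga6. Itga3 was at 30.8 ± 0.915 CPM in normoxic and 29.99 ± 4.66 CPM in OIR libraries (mean ± SD, n = 6 in each group), with an edgeR adjusted p of 0.81. Itga7, the laminin receptor chain of muscle, was at 9.82 ± 0.843 and 9.88 ± 1.13 CPM (edgeR adjusted p = 0.91). The collagen receptor chain gene Itga10 had a log2 fold change of -0.37 ± 0.21 SE (edgeR adjusted p = 0.19). Itga11, a collagen receptor chain of fibroblasts, had 64 counts over all normoxic and 51 over all OIR libraries and was too low to test.

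Chains that bind fibronectin and other matrix proteins, many through an arginine-glycine-aspartate motif, rose in 4 of 6 members. Itga5, the fibronectin receptor chain (chromosome 15, 103252713 to 103275190), lay at 3.98 to 6.65 CPM in normoxic (median 5.87) and at 15.4 to 24.1 CPM in OIR libraries (median 18.9). The lowest OIR library was more than 2-fold above the highest normoxic library. The rise was 3.36-fold (log2 1.75 ± 0.13 SE, edgeR adjusted p = 1.1e-08). Itgav, the partner of most of the other beta chains (chromosome 2, 83554741 to 83637260), lay at 32.2 to 42.5 CPM (median 38.8) and 57.9 to 74.9 CPM (median 67.7), a 1.77-fold rise (edgeR adjusted p = 2.1e-07). Itga9, a receptor chain for tenascin and osteopontin, lay at 7.03 to 9.92 CPM (median 8.25) and 12.8 to 19.98 CPM (median 16.3), a 1.95-fold rise (edgeR adjusted p = 8.1e-06). Both genes had separate groups. Itga8, the nephronectin receptor chain, had a log2 fold change of 0.41 ± 0.19 SE (edgeR adjusted p = 0.10), with 5 of 6 OIR libraries above the normoxic range. Without OIR replicate 4 its fold change was 0.53 and passed the test (edgeR adjusted p = 0.020).

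Itga4, the chain of the receptor for fibronectin and the endothelial molecule Vcam1 (chromosome 2, 79085770 to 79163467), lay at 52.2 to 97.4 CPM in normoxic (median 70.5) and at 127.5 to 235.5 CPM in OIR libraries (median 198). The groups did not overlap, and the rise was 2.66-fold (log2 1.41 ± 0.16 SE, edgeR adjusted p = 3.0e-06). Its 3' end shares 2581 bases with Cerkl, a retinal gene on the opposite strand. Cerkl itself rose from 8.61 ± 4.19 to 39.6 ± 13.6 CPM (log2 2.20, edgeR adjusted p = 9.1e-06). Both genes were lower in normoxic replicates 1 to 3 than in 4 to 6, at 52.2 to 55.0 against 85.9 to 97.4 CPM for Itga4 and at 5.02 to 5.36 against 9.81 to 15.3 CPM for Cerkl. In OIR both were higher in replicates 1 to 3, at 202.6 to 235.5 against 127.5 to 193.8 CPM for Itga4 and 43.0 to 56.0 against 15.6 to 38.7 CPM for Cerkl. No source read here states the strand setting of the counting, and without it reads from the shared stretch cannot be told apart. The value of Itga4 is therefore uncertain, and the same doubt holds for Vcl, Tln1, Fermt3 and Ilk, the other members whose model overlaps a neighbour with at least 1000 counts.

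**Figure D2:**
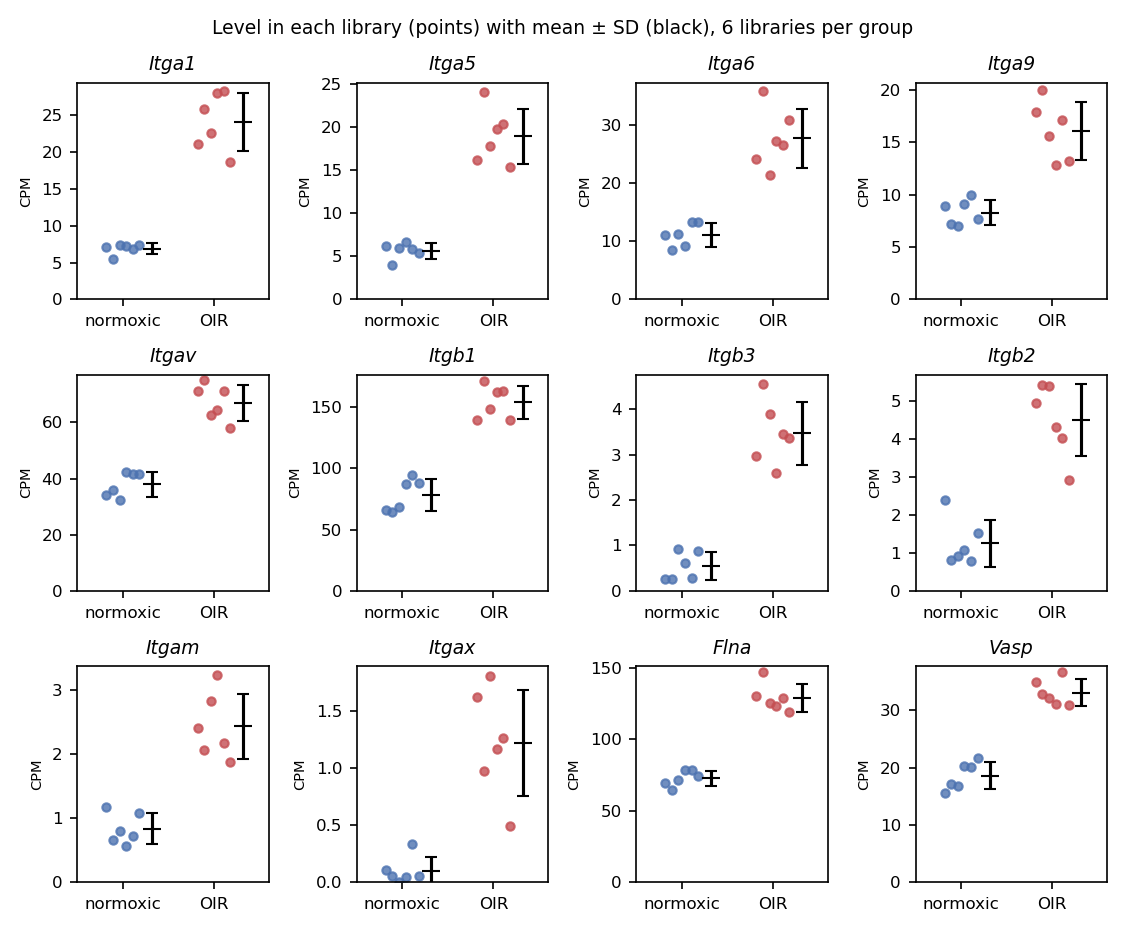
CPM (y axis, starting at 0) of 12 members in each of the 6 normoxic and 6 OIR libraries (points), with mean ± SD in black (the lower bar of Itgax in normoxic is clipped at 0). The 12 genes are a selection, all with OIR points above the normoxic points, which held for 22 of the 36 tested members. Itgax was not tested, and Itgb3 entered the test only through its OIR libraries.

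Every beta chain with enough reads rose, 6 of 6, and Itgb6 and Itgb7 were too low to test. Itgb3, the beta chain of the vitronectin receptor of sprouting endothelium and of the platelet fibrinogen receptor (chromosome 11, 104498826 to 104561302), had the largest fold change among the tested members. Itgb3 entered the test only through its OIR libraries, so this rank depends on the filter. It lay at 0.266 to 0.922 CPM in normoxic (median 0.449) and at 2.60 to 4.55 CPM in OIR libraries (median 3.40). The counts were 59 over the normoxic and 386 over the OIR libraries, a 6.44-fold rise (log2 2.69 ± 0.29 SE, edgeR adjusted p = 1.5e-06). Its platelet partner Itga2b did not pass the test (5.40 ± 1.04 and 4.49 ± 0.808 CPM, log2 -0.26 ± 0.16 SE, edgeR adjusted p = 0.24). Relative to the summed endothelial markers, Itgb3 was at 0.0979 to 0.339 CPM per 100 CPM of markers in normoxic and at 0.564 to 1.09 in OIR libraries, ranges that did not overlap. Of the 8 members put on this scale, Itga1 (2.23 to 2.71 and 5.12 to 6.22), Itga5 (1.63 to 2.39 and 4.08 to 5.79) and Itga6 (3.28 to 4.64 and 5.05 to 8.58) were also separate. The other 4 overlapped: Itgb1 (24.9 to 33.3 and 32.8 to 41.0), Itgav (11.9 to 15.3 and 13.9 to 18.5), Flna (highest normoxic 28.2, lowest OIR 25.9) and Vasp (5.87 to 7.27 and 6.73 to 9.07). The picture differed per 100 CPM of the markers of pericytes and smooth muscle, computed for 5 members. There Itgb3 (0.137 to 0.491 and 0.456 to 0.866), Itga1 (3.23 to 4.48 and 3.80 to 4.93), Itga5 (2.36 to 3.89 and 3.14 to 4.59) and Itga9 (3.55 to 5.55 and 2.25 to 4.10) overlapped. Itgb1 was lower in OIR on that scale, with separate ranges of 36.4 to 46.5 and 25.3 to 32.6. Each scale leans on 1 abundant marker. Kdr carried much of the endothelial sum (143.9 ± 12.3 and 173.6 ± 18.6 CPM) and rose 1.21-fold. The other endothelial markers ranged from 1.205-fold for Tek, which did not pass, to 3.58-fold for Erg, with Pecam1 at 2.44 and Cdh5 at 3.40. Rgs5 carried most of the sum for pericytes and smooth muscle (143.5 ± 21.2 and 392.7 ± 63.0 CPM). Separate ranges on these scales therefore depend on the markers summed. These ratios are descriptions without a test.

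Itgb1, the common partner of the collagen, laminin and fibronectin chains (chromosome 8, 129412135 to 129459681), lay at 64.5 to 94.7 CPM in normoxic (median 77.7) and at 139 to 171 CPM in OIR libraries (median 155). The groups were separate and the rise was 1.98-fold (log2 0.99 ± 0.09 SE, edgeR adjusted p = 1.9e-07). Itgb5, a vitronectin receptor chain that pigment epithelium and glia also carry, rose less. Its libraries lay at 63.8 to 74.8 CPM (median 70.9) and 76.95 to 92.05 CPM (median 85.3), a 1.22-fold rise with separate groups (log2 0.29 ± 0.06 SE, edgeR adjusted p = 6.3e-04). Itgb4, the hemidesmosome chain that pairs with Itga6, rose 1.71-fold with overlapping groups (edgeR adjusted p = 0.011). Within replicate numbers 1 to 3 its log2 fold change was 0.45 and did not pass (edgeR adjusted p = 0.18), and within 4 to 6 it was 1.20 (edgeR adjusted p = 0.0071).

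Itgb8 encodes the beta chain that, with Itgav, releases active transforming growth factor beta from its latent form (chromosome 12, 119121757 to 119202537). It lay at 14.1 to 38.5 CPM in normoxic (median 23.8) and at 37.3 to 55.1 CPM in OIR libraries (median 40.2), a 1.75-fold rise (log2 0.81 ± 0.20 SE, edgeR adjusted p = 0.0050). The normoxic libraries were split by replicate number, at 14.1 to 17.5 CPM in replicates 1 to 3 and 30.01 to 38.5 CPM in replicates 4 to 6. The OIR libraries lay at 41.0 to 55.1 and 37.3 to 39.3 CPM. Within numbers 1 to 3 the log2 fold change was 1.58 (edgeR adjusted p = 1.9e-10), and within 4 to 6 it was 0.23 and did not pass (edgeR adjusted p = 0.088). Normoxic libraries of other members were also split by replicate number, and the members named here are examples. Itgb1 lay at 64.5 to 68.4 CPM in replicates 1 to 3 and 86.9 to 94.7 CPM in 4 to 6. Itgav (32.2 to 36.1 and 41.5 to 42.5), Vasp (15.5 to 17.2 and 20.2 to 21.7) and Flna (64.7 to 71.3 and 74.7 to 78.5) were split the same way. Tln1 (66.8 to 71.9 and 59.0 to 64.0) and Tln2 (115.9 to 122.8 and 99.2 to 107.7) were split the other way. OIR libraries of some members were split too, with lower levels in replicates 4 to 6. Examples are Itgb2 (4.925 to 5.413 and 2.923 to 4.305) and Itga2 (2.591 to 2.917 and 1.324 to 2.019). Others are Vcl (8.891 to 11.75 and 7.391 to 7.921) and Ptk2 (66.66 to 69.09 and 62.49 to 65.38). Splits were not counted over the members or over all genes. The labels do not say what the replicate numbers stand for, and the difference between the 2 sets was not tested.

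**Figure D3:**
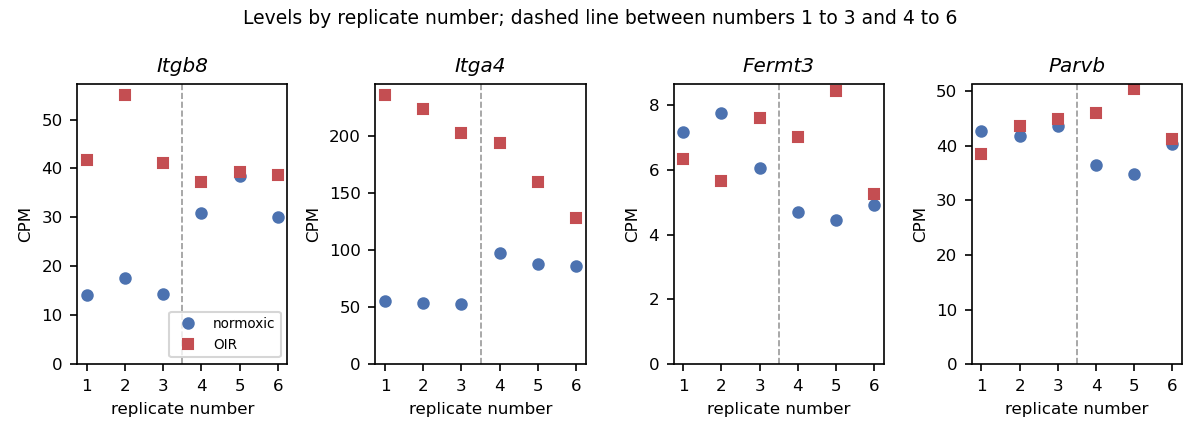
CPM (y axis, starting at 0) of Itgb8, Itga4, Fermt3 and Parvb against the replicate number of the library (x axis), circles normoxic and squares OIR. Normoxic levels step up between numbers 3 and 4 in Itgb8 and Itga4 and step down in Fermt3, and in Itgb8 the groups nearly meet at number 5.

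Levels between genes were compared per length, as FPKM (fragments scaled to gene length and library total by the authors). The alpha chains summed to 22.05 ± 1.70 FPKM in normoxic and 40.0 ± 5.11 FPKM in OIR libraries, and the beta chains to 41.9 ± 4.33 and 68.1 ± 4.57 FPKM. No library of the 2 groups overlapped in either sum. Itgb1 made up 45.4 ± 3.48% of the beta FPKM in normoxic and 55.3 ± 1.84% in OIR libraries, with ranges of 41.1 to 49.3% and 53.1 to 58.2%. Itgb5, the other abundant beta chain, went from 47.2 ± 4.53% to 35.0 ± 2.35%. On the alpha side Itga3 made up 24.6 ± 2.23% and 13.1 ± 0.876% of the FPKM, and Itga4, with the doubt given above, 23.1 ± 4.97% and 33.8 ± 3.90%. The FPKM of Itga3 itself was 5.40 ± 0.160 and 5.25 ± 0.815, so its share moved with the sum. The share of Itgav was 16.0 ± 1.14% and 15.7 ± 1.07%, and that of Itga5 was 5.20 ± 0.714% and 9.64 ± 1.19%. These shares are descriptions of the deposited FPKM, without a test.

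**Figure D4:**
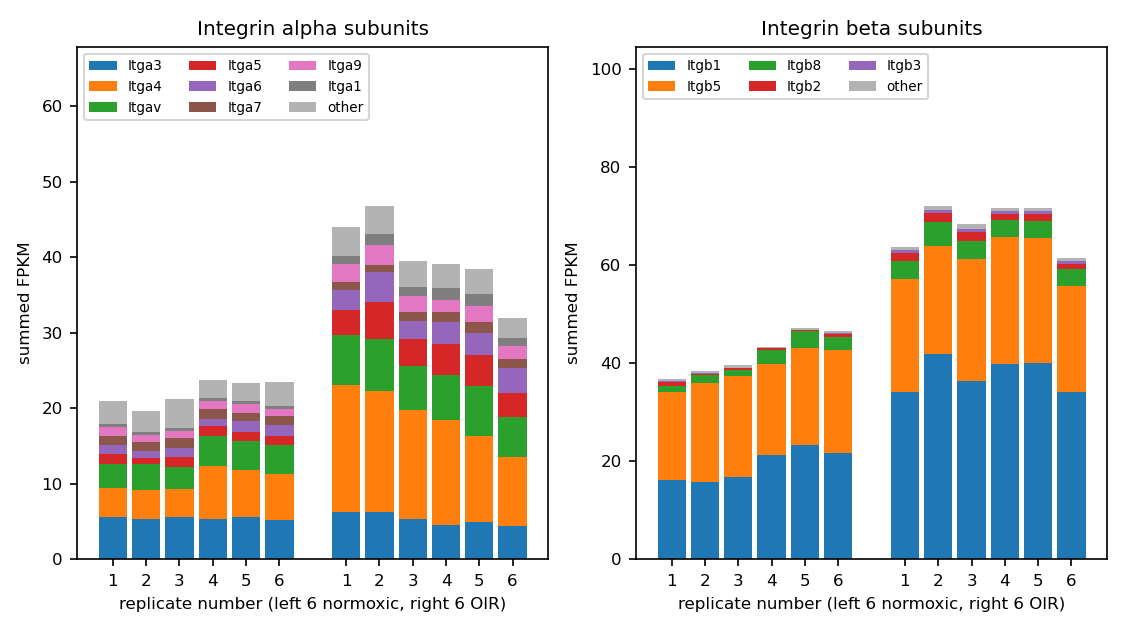
Summed FPKM (y axis) of the 16 alpha chains (left) and 8 beta chains (right) in each library (x axis, replicate number), stacked by gene. The alpha bars reach 19.6 to 23.7 FPKM in normoxic and 31.9 to 46.8 FPKM in OIR libraries, and the beta bars 36.7 to 47.0 and 61.4 to 72.01 FPKM. The alpha bars include Itga4, whose value is uncertain.

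The leukocyte integrins were scarce. Itgb2, the common beta chain of leukocytes (chromosome 10, 77366086 to 77401542), lay at 0.781 to 2.39 CPM in normoxic (median 1.00) and at 2.92 to 5.41 CPM in OIR libraries (median 4.62), and rose 3.58-fold (log2 1.84 ± 0.25 SE, edgeR adjusted p = 2.2e-05). Itgam, its partner in complement receptor 3 of microglia and myeloid cells, lay at 0.567 to 1.17 CPM (median 0.766) and 1.88 to 3.24 CPM (median 2.29). Both had separate groups, and Itgam rose 2.92-fold (edgeR adjusted p = 5.2e-05). Itgax, the partner in complement receptor 4 and a marker of dendritic cells and activated microglia, had 11 counts in normoxic libraries together and 138 in OIR libraries together. The ratio of its counts was 12.4 (95% exact interval 6.74 to 25.5, which covers counting error only), and its libraries lay at 0 to 0.335 and 0.496 to 1.81 CPM. It was left out by the filter on low counts. Where every gene with a read was tested, it passed (edgeR adjusted p = 1.5e-06). Itgal, the partner found on lymphocytes and other leukocytes, did not pass (0.969 ± 0.312 and 1.39 ± 0.234 CPM, edgeR adjusted p = 0.13). Itgb7, a beta chain of gut-homing lymphocytes, had 43 and 67 counts over the groups, and the epithelial chain Itgb6 had 7 and 2.

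Per 100 CPM of the summed markers of microglia and macrophages, Itgb2 was at 1.36 to 4.78 CPM in normoxic and 3.01 to 4.45 in OIR libraries, and Itgam at 1.13 to 2.34 and 1.71 to 2.56. On this scale the groups overlapped for both genes, as they did for Itgax (0 to 0.584 and 0.511 to 1.37), Itgal (0.823 to 2.50 and 0.875 to 1.37) and Itga4 (103 to 194 and 128 to 185). Fermt3, the kindlin gene of blood cells, was lower in OIR per 100 CPM of these markers, with separate ranges of 7.79 to 14.9 and 4.64 to 6.81. Its own level was not lower in OIR (5.84 ± 1.38 and 6.71 ± 1.21 CPM). This scale, too, depends on the markers summed. Their changes ranged from 1.13-fold for Tmem119 and 1.31-fold for P2ry12, which did not pass, to 3.41-fold for C1qa. The ratios were not tested. Markers of T, B and NK cells summed to 1.27 to 2.11 and 1.26 to 3.15 CPM over 7 genes, of which 1 could be tested and did not pass. Neutrophil markers summed to 2.65 to 3.93 and 3.01 to 5.59 CPM over 6 genes, with Mpo at 0 throughout, and again the 1 tested gene did not pass.

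Among the proteins that switch integrins on, Fermt2, the kindlin of most tissues (chromosome 14, 45696252 to 45767575), lay at 43.0 to 46.8 CPM in normoxic (median 46.1) and at 60.85 to 67.55 CPM in OIR libraries (median 62.8). This was a small but even rise of 1.41-fold, with separate groups (log2 0.49 ± 0.04 SE, edgeR adjusted p = 1.6e-07). Tln1, the talin of non-neural cells, lay at 59.0 to 71.9 CPM (median 65.4) and 75.8 to 95.7 CPM (median 82.5), a 1.29-fold rise with separate groups (edgeR adjusted p = 1.7e-04). Tln2, the talin of brain and muscle, did not pass, at 111 ± 10.2 and 107 ± 4.13 CPM (edgeR adjusted p = 0.60). The hematopoietic kindlin gene Fermt3 did not pass either (5.84 ± 1.38 and 6.71 ± 1.21 CPM, edgeR adjusted p = 0.35), with a log2 fold change of -0.10 within replicate numbers 1 to 3 and 0.58 within 4 to 6. Fermt1, the kindlin of epithelia, had 2 and 4 counts. Vcl, which encodes vinculin and reinforces talin under tension, lay at 4.89 to 5.91 CPM (median 5.35) and 7.39 to 11.8 CPM (median 8.41). Its rise was 1.67-fold (edgeR adjusted p = 1.5e-04), and within numbers 4 to 6 the log2 fold change was 0.45 and did not pass (edgeR adjusted p = 0.054). Vcl shares 2235 bases with the opposite-strand gene Ap3m1, which had 5203 and 5522 counts over the groups where Vcl had 591 and 990, so its fold is uncertain too. Ap3m1 itself did not pass (log2 0.08, edgeR adjusted p = 0.42). Tln1 shares 360 bases with Creb3 (log2 0.04) and Fermt3 89 bases with Trpt1 (log2 -0.10), and neither neighbour passed (edgeR adjusted p = 0.66 and 0.50).

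The complex of ILK, PINCH and parvin could be read in part only. Lims1, which encodes the PINCH adaptor (chromosome 10, 58159288 to 58260513), lay at 43.5 to 49.8 CPM (median 44.5) and 60.6 to 75.1 CPM (median 66.4), and rose 1.48-fold with separate groups (edgeR adjusted p = 2.7e-07). The parvin genes did not pass: Parva was at 82.3 ± 4.94 and 79.3 ± 4.14 CPM (edgeR adjusted p = 0.56) and Parvb at 40.0 ± 3.52 and 44.1 ± 4.08 CPM (edgeR adjusted p = 0.12). Ilk, the scaffold of this complex in most cells, is listed at 0 in every library (chromosome 7, 105385799 to 105392132). A count of 0 over all libraries allows up to 0.0135 CPM by counting error. The locus overlaps other gene models: Ilk shares 3533 bases with Taf10 and 794 bases with Rrp8, both on the opposite strand. Taf10 lay at 42.2 to 58.3 CPM and Rrp8 at 22.8 to 25.9 CPM over the 12 libraries. The 0 is not read as absence of the transcript, and its cause was not tested.

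Focal adhesion kinase and paxillin rose slightly. Pxn, the paxillin scaffold gene, lay at 57.9 to 64.6 CPM in normoxic (median 59.6) and 75.7 to 78.9 CPM in OIR libraries (median 77.3), 1.29-fold higher with separate groups (edgeR adjusted p = 5.9e-06). Ptk2, the kinase gene, lay at 52.3 to 65.6 CPM (median 58.2) and 62.5 to 69.1 CPM (median 66.0). Its groups overlapped, and the rise was 1.14-fold (edgeR adjusted p = 0.0072).

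Every one of the 6 genes for actin crosslinkers and stress fibre proteins rose, with separate groups. Flna, the filamin that crosslinks actin and binds beta tails (chromosome X, 73267067 to 73293426), lay at 64.7 to 78.5 CPM in normoxic (median 73.0) and 119 to 147 CPM in OIR libraries (median 127). The rise was 1.78-fold (log2 0.83 ± 0.06 SE, edgeR adjusted p = 5.3e-09). Vasp, which lengthens actin filaments at adhesions, lay at 15.5 to 21.7 CPM (median 18.7) and 30.9 to 36.7 CPM (median 32.5), 1.79-fold higher (edgeR adjusted p = 3.5e-07). The alpha-actinins changed less. Actn1 lay at 28.7 to 35.8 CPM (median 32.6) and 40.15 to 47.45 CPM (median 44.3), 1.37-fold higher, and Actn4 at 173 to 178 CPM (median 176) and 199.3 to 218.5 CPM (median 212), 1.21-fold higher (edgeR adjusted p = 1.4e-05 for each). Zyx, the zyxin gene, whose protein marks adhesions under tension, rose 1.36-fold and Tns1, which encodes tensin, 1.29-fold (edgeR adjusted p = 1.2e-04 and 3.6e-04).

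Vcl, Fermt2, Itgb1 and Flna were each called higher, and their upstream sequences are shown because they hold short motifs linked to actin, stretch or hypoxia signalling. They were picked by these motifs, and whether they share a regulator was not tested. Promoter entries from RefSeq (build GRCm38.p6, not the build of the count table) matched 32 of the 42 members in 37 entries, of which the 250 bases before the start were searched on both strands. Names without an entry were Itga6, Itga7, Itgal, Itgb2, Itgb3, Itgb4, Parva, Ptk2, Pxn and Tln2. The CArG box of serum response factor was found upstream of Vcl, Fermt2 and Itgb6 and in 1.47% of all 32851 promoters. The letters GGAATG, the core bound by TEAD factors, were found in Vcl, Itgb1, Flna, Actn4 and Itga10 and in 12.6% of all promoters. For the hypoxia response core, ACGTG was found in Vcl, Itga9, Lims1 and Ilk (16.6% of all promoters), and GCGTG in 8 members (28.2%). The AP-1 letters TGANTCA were found in 3 members, Zyx, Itgax and Actn4 (6.75% of all promoters). The motifs marked in the sequences shown do not overlap each other. Of the 37 member entries, the CArG box was in 3, GGAATG in 5, ACGTG in 4, GCGTG in 8 and TGANTCA in 3. Whether members hold any motif more often than other genes was not tested. A match says only that the letters are there.

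The sequences run 5' to 3' on the gene's own strand, and bases in exons of the GENCODE annotation of the same build were left out. Vcl lies at chr14:20929148-20929397 (plus strand), Fermt2 at chr14:45530119-45530315 (minus), Itgb1 at chr8:128685404-128685653 (plus) and Flna at chrX:74246556-74246784 (minus). Capitals mark the CArG box, then GGAATG and then ACGTG in Vcl, the CArG box in Fermt2, GGAATG in Itgb1 and the reverse complement of GGAATG in Flna.
Vcl: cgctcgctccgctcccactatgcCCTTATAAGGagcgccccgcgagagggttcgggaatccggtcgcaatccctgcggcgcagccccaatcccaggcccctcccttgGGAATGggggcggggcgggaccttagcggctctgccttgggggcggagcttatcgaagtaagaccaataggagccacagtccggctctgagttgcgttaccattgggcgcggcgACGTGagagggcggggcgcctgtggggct
Fermt2: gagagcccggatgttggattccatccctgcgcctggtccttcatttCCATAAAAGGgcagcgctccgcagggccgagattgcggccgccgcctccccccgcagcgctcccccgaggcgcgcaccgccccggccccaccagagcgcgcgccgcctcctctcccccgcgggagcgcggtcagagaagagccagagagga
Itgb1: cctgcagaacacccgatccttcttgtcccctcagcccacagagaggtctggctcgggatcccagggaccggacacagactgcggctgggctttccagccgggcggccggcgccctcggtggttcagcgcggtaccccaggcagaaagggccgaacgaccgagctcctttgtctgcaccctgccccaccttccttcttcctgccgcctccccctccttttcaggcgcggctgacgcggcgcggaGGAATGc
Flna: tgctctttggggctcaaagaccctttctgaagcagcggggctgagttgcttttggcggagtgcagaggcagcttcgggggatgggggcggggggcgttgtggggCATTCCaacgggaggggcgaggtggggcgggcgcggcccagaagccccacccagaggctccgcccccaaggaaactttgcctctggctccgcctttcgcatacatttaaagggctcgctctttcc
In Vcl the CArG box lies 227 to 218 bases before the start and in Fermt2 204 to 195 bases before it. The GGAATG of Itgb1 lies 7 to 2 bases before the start.

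Other genes of the adhesion machinery, listed with earlier results known, went the same way in part. Of 44 such genes 42 were tested, 23 rose and none fell, and the median change was 0.22 on the log2 scale. Over all tested genes, 16.2% were called higher and 14.8% lower, with a median of -0.0079. The cysteine-rich LIM protein gene Csrp1 rose 2.33-fold (29.8 ± 2.45 to 69.1 ± 5.68 CPM, edgeR adjusted p = 4.4e-10). The tetraspanin genes Cd9 and Cd151, whose proteins sit beside laminin-binding integrins, were 1.90 and 1.80 times higher in OIR, with edgeR adjusted p of 4.4e-09 and 1.9e-08.

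Ligands of integrins were higher in 20 of 31 tested genes of 34 and lower in 4, with a median log2 fold change of 0.87. This list holds matrix genes already known to be higher in these libraries, so its direction is no independent evidence. Col4a1 and Col4a2, which encode the type IV collagen bound by the Itga1 and Itga2 chains, were 4.80 and 3.46 times higher in OIR, with edgeR adjusted p of 6.3e-13 and 3.8e-12. Fn1, the fibronectin gene and ligand of Itga5, was at 70.1 ± 8.47 CPM in normoxic and 265.4 ± 31.7 CPM in OIR libraries, 3.81 times higher (edgeR adjusted p = 1.1e-11). Those that fell were named after their values were seen: Npnt, the ligand gene of Itga8, had a log2 fold change of -0.64, Edil3 of -0.38, Cdh1 of -1.15 and Tgfb3 of -0.26 (edgeR adjusted p = 1.5e-05, 4.8e-04, 0.0041 and 0.0083). Vcam1, the Itga4 ligand gene of inflamed endothelium, did not pass (22.4 ± 6.98 and 24.5 ± 4.73 CPM, edgeR adjusted p = 0.60), while Icam1, the leukocyte integrin ligand gene, rose 3.93-fold (edgeR adjusted p = 5.0e-05).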

How the data were processed

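RNA was counted per gene in 12 libraries, 6 normoxic and 6 OIR, grouped by the sample titles. The authors deposited whole-number counts per gene, with total counts of 17361979 to 21594618, and, beside them, FPKM, per the file headers. Trimmomatic, HISAT2 version 2.0.5, HTSeq and build GRCm39 are named without roles, per the submitters' processing notes. Annotation, strand setting and read filters: not given in the sources used here. Coordinates are those of the table.

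Tests used edgeR's quasi-likelihood fit (version 4.0.16, R version 4.3.3) after filterByExpr (at least 10 counts, total at least 15) and TMM scaling, with Benjamini-Hochberg adjustment over all tested genes and a threshold of 0.05. The SE is the log2 fold change over the root of the F statistic. CPM uses library totals. The procedure was also run on simulated counts in which few genes changed, evenly in both directions, with libraries drawn independently. That run does not cover the setting of these data, where 31.0% of tested genes were called. No library was merged with another, since every pair within a group differed by more than counting noise (chi-square over its degrees of freedom 2.98 to 14.1).

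The members and lists were chosen with earlier results of these data known. Given library by library are, in each role class, the up to 4 members with the smallest adjusted p past the threshold, and in any case Itgb1, Itgav, Itga5, Itgb3, Itgb8, Itgam, Itgb2, Tln1 and Ilk. Of the other adhesion genes and ligands, the 3 with the smallest adjusted p are named; Npnt, Edil3, Cdh1, Tgfb3, Vcam1 and Icam1 were added after their values were seen. Lists of markers whose calls are not given elsewhere gave these counts: rods 0 higher and 1 lower of 6, pigment epithelium 0 and 0 of 4 tested of 5, and red cells 3 and 0 of 3. Alternatives were other filters, scalings, DESeq2 version 1.42.0, limma version 3.58.1 on log2(FPKM + 1) and log2(FPKM + 0.1), blocks for the replicate number and for its sets 1 to 3 and 4 to 6, each set alone, and leaving out each library.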

Additional observations from a re-analysis of the deposited data

Results flagged for a closer look

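Chance flags about 1 in 20 groups of libraries in which the extreme value stands apart, and 2 of the 72 groups examined (36 members in each condition) were flagged. Itga1 was lower in normoxic replicate 2, at 5.45 CPM, than in the other normoxic libraries at 6.80 to 7.41 CPM. Itgb8 was higher in OIR replicate 2, at 55.1 CPM, than in the other OIR libraries at 37.3 to 41.6 CPM. Leaving out any single library gave log2 fold changes of 1.75 to 1.87 for Itga1 and 0.69 to 0.98 for Itgb8, all past the test (highest edgeR adjusted p = 1.4e-08 and 0.016).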

How the results depend on the processing

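Of the 26 members called higher, 22 kept their call and direction in all 23 alternatives run, and Itga2, Itgb4, Itgb8 and Vcl lost it within 1 set of replicate numbers. Itga2 did so within 4 to 6 (edgeR adjusted p = 0.0595). Leaving out 1 library gave 26 to 27 members higher and 0 lower, and 2688 to 3084 genes higher and 2372 to 2786 lower over all tested genes. Where a member was added, it was Itga8 without OIR replicate 4 and Itgax otherwise. Itgax was then admitted only through the group where it is high. It reached the filter's level in 0 normoxic and 5 OIR libraries. Within replicate numbers 4 to 6, 1536 genes were lower, against 2704 in the fit of all libraries. With the replicate block, 26 members, 2992 genes higher and 2683 lower were called. The numbers were not taken to pair the libraries, since deviations of same-numbered libraries correlated at -0.03 to 0.13, over 0.1 in 2 of 6 pairs. Among members that did not pass, the sign turned within numbers 1 to 3 for Itga3 (0.11), Itga7 (-0.18), Parvb (-0.010) and Fermt3 (-0.10), and within 4 to 6 for Tln2 (0.053) and Parva (0.027). Leaving out 1 library gave Itga3 -0.086 to 0.012 and Itga7 -0.038 to 0.059. Parvb and Fermt3 passed within 4 to 6 (edgeR adjusted p = 0.011 and 0.046). The causes were not tested. On log2(FPKM + 1), fold changes of scarce members are smaller by construction, such as 0.54 for Itgb3. With no filter on low counts, Itga11, Itgb7, Itgb6 and Fermt1 did not pass (edgeR adjusted p = 0.64, 0.44, 0.43 and 0.71), and Itgax did. Itgb6 and Fermt1 had under 10 counts in all, with wide counting intervals for the ratio of OIR to normoxic counts (0.0287 to 1.49 and 0.284 to 21.9).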

Other observations

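Platelet genes were near the limit of detection in both groups and summed to 0.381 to 1.08 CPM in normoxic and 1.40 to 2.27 CPM in OIR libraries over 7 genes, with Gp1bb at 0 throughout. Of these only Pf4, a chemokine gene of platelets that macrophages also express, could be tested, with 8 counts over the normoxic and 120 over the OIR libraries. Itga2b, the platelet integrin chain, had 594 and 496 counts over the same libraries.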
